A study of Mus musculus with 2 samples.

Results

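The 10 genes of the circadian clock, Clock, Npas2, Per1, Per2, Per3, Cry1, Cry2, Nr1d1, Nr1d2 and Dbp, were followed in polyadenylated RNA of the adult mouse urinary bladder. They were chosen by gene name, with earlier results of these data known. All were found in the gene tables of both libraries, as 10 of 43346 Ensembl genes. The single group was urinary bladder of 8 week old C57BL/6J mice, littermates of both sexes, with no treatment, mutation or transgene named. The 2 libraries were made from this tissue, numbered as biological replicates 1 and 2. Both name the same donor entry, and the labels do not say how many animals went into each, so the spread between them may be partly technical. No time of dissection is given. With 1 library on each side of a ratio there is no replicate check of a difference and no p-value, and a ratio compares these 2 libraries only.

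The clock is a feedback loop of transcription. CLOCK and its relative NPAS2 each pair with a partner of the same protein family, bind E-box sequences and switch on the Per and Cry genes, whose proteins accumulate and then block the pair that made them. The same activators drive Nr1d1 and Nr1d2, nuclear receptors also called REV-ERB alpha and beta, which repress genes with a RORE site, among them Clock, Npas2 and Cry1. They also drive Dbp, a PAR bZIP transcription factor that binds D-box sites and passes the rhythm on to other genes. In mouse peripheral tissues Nr1d1, Nr1d2, Dbp and the Per genes generally peak between day and dusk or early night, and Cry1, Npas2 and Clock between late night and dawn, while Cry2 has only a weak rhythm. The bladder has a clock of this kind, known for its part in the daily rhythm of urine storage.

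The start regions of 4 of the genes are shown, searched for the motifs of the loop. Nr1d1 and Dbp differed most between the libraries toward replicate 1, Cry1 most toward replicate 2, and Per3 holds the D-boxes that proteins such as DBP bind. Each window is taken from RefSeq on GRCm38.p6, runs 5′ to 3′ on the gene's own strand, and covers 250 bases before to 50 bases after a transcription start. Capitals mark matches to an E-box (CACGTG), an E-prime box (CACGTT, or AACGTG on the other strand), a D-box (TTANGTAA, or TTACNTAA) or the core of a cyclic AMP response element (TGACG, or CGTCA).
Nr1d1, minus strand, chr11:98775328-98775627: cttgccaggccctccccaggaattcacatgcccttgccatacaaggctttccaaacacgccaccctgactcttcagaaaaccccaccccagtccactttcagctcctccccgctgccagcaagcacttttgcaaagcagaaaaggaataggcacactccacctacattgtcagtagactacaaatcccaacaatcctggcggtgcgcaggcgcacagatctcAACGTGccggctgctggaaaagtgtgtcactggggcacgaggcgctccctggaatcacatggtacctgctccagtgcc
Dbp, plus strand, chr7:45704997-45705296: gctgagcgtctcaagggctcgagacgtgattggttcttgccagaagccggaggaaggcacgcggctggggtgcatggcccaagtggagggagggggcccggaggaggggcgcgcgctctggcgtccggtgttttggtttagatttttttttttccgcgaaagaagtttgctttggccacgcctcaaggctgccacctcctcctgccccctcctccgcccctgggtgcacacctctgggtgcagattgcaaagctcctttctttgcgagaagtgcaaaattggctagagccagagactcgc
Cry1, minus strand, chr10:85185005-85185304: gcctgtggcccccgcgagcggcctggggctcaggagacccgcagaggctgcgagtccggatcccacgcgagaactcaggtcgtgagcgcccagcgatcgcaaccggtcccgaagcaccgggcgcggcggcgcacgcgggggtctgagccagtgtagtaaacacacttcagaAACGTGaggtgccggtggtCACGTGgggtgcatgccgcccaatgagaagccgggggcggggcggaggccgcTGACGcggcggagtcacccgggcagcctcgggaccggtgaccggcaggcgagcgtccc
Per3, minus strand, chr4:151044616-151044915: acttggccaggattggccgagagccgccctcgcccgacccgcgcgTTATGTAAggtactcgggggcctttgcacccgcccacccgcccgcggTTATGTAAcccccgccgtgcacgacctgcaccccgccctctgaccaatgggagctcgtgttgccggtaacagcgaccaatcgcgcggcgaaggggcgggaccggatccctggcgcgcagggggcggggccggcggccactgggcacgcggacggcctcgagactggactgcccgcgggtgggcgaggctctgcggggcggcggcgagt
The Cry1 window held an E-box 60 bases before the start, an E-prime box 79 bases before it and a cyclic AMP core 8 bases before it. Nr1d1 held an E-prime box 28 bases before its start. Per3 held the same D-box letters, TTATGTAA, at both 205 and 158 bases before its start. The Dbp window held none of these letters, which says nothing of sites elsewhere in the gene.

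Of the members, 9 had such windows, 12 in all, and Per2 was not matched. An E-box lay in 2 of the 12, those of Cry1 and Per1, against 7.15% of the 32851 windows of all genes. An E-prime box lay in 3, those of Cry1, Nr1d1 and Cry2, against 4.68% of all windows, and a D-box in 1, that of Per3, against 2.32%. The cyclic AMP core lay in 4 windows of 3 members (Cry1, Cry2 and Per1, the last with 2 windows), against 20.8% of all. A RORE (ANTNGGTCA, or TGACCNANT on the other strand) lay in 0 of the 12, against 2.24% of all. A match is only a description of the letters in these short windows.

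The libraries held 104610979 expected counts in replicate 1 and 111741334 in replicate 2. Markers of bladder tissue were high in both. Acta2, the smooth muscle actin, reached 8841 TPM in replicate 1 and 8508 in replicate 2, and Upk1a, a plaque protein of the superficial urothelium, 1612 TPM in replicate 1 and 2342 in replicate 2. TPM, a gene's share of all transcripts, is corrected for transcript length, so levels of different genes can be compared. The libraries differed in their cell type markers: the summed TPM of the adipocyte list was 367 in replicate 1 and 804 in replicate 2, that of the superficial urothelium list 3130 in replicate 1 and 4518 in replicate 2, and that of the smooth muscle list 21017 in replicate 1 and 18636 in replicate 2. In bulk tissue, fewer cells of a type and less RNA per cell cannot be told apart.

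All 10 genes were expressed, and their levels spanned more than 2 orders of magnitude. Dbp was the most abundant, above 97.7% of the 14533 genes that averaged 1 TPM or more, and Nr1d1 was next, above 93.8%. Npas2 was the least abundant, above only 6.37%. Together the 10 genes made up 0.0764% of all gene TPM in replicate 1 and 0.0580% in replicate 2.

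**Figure D1:**
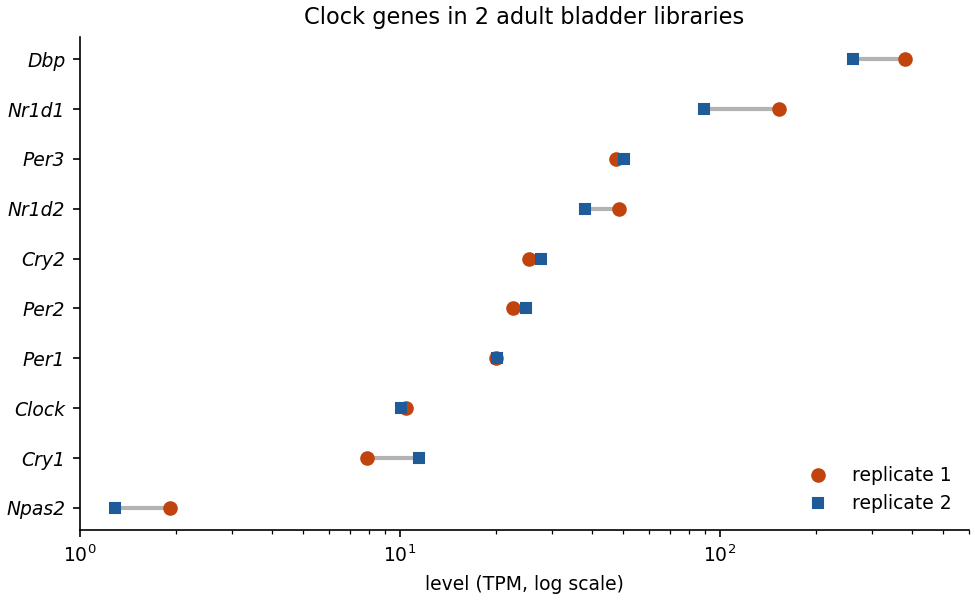
Level of each clock gene in TPM on a log axis, with circles for replicate 1, squares for replicate 2 and a grey line joining them. Dbp and Nr1d1 lie furthest right and Npas2 furthest left, and the circles and squares are visibly apart for Dbp, Nr1d1, Nr1d2, Cry1 and Npas2.

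The activators were at the low end. Clock (chr5:76209868-76304792, minus strand, mm10) had 10.5 TPM in replicate 1 and 10.1 TPM in replicate 2, from 5868 and 6224 expected counts. The libraries were almost level for this gene. Npas2 (chr1:39193731-39363236, plus strand) had 1.92 TPM in replicate 1 and 1.29 TPM in replicate 2, from only 570 and 394 expected counts. Npas2 was thus the member with the fewest counts, and its values carry the widest counting error of the 10.

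Among the repressors the 3 Per genes outranked Cry1. Per3 (chr4:151003652-151044665, minus strand), a Per family member that is less essential for rhythm than the other two, had 47.6 TPM in replicate 1 and 50.3 TPM in replicate 2. Per2 (chr1:91415982-91459324, minus strand), a core repressor, had 22.5 TPM in replicate 1 and 24.8 TPM in replicate 2. Per1 (chr11:69095217-69109960, plus strand), a repressor that also responds quickly to outside signals, had 20.0 TPM in replicate 1 and 20.2 TPM in replicate 2. The 3 Per genes thus differed little between the libraries, with SDs of 1.92 TPM for Per3, 1.59 TPM for Per2 and 0.15 TPM for Per1 (n = 2). Cry2 (chr2:92403646-92434043, minus strand) had 25.3 TPM in replicate 1 and 27.6 TPM in replicate 2. Cry1 (chr10:85131700-85185064, minus strand), the cryptochrome that represses most strongly late in the cycle, had 7.89 TPM in replicate 1 and 11.5 TPM in replicate 2. Of the Per and Cry genes only Cry1 stood well apart in the libraries, and it was higher in replicate 2.

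The nuclear receptors and the output factor were both abundant and unequal. Nr1d1 (chr11:98767932-98775333, minus strand) had 153 TPM in replicate 1 and 89.4 TPM in replicate 2, from 28465 and 17809 expected counts. Nr1d2 (chr14:18204054-18239127, minus strand) had 48.3 TPM in replicate 1 and 37.9 TPM in replicate 2. Dbp (chr7:45705088-45710203, plus strand) had 380.0 TPM in replicate 1 and 261 TPM in replicate 2, from 34394 and 27599 expected counts. All 3 were higher in replicate 1.

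By mean TPM the order of levels was Dbp, Nr1d1, Per3, Nr1d2, Cry2, Per2, Per1, Clock, Cry1 and Npas2. The means ran from 321 ± 83.9 TPM for Dbp and 121 ± 45.2 TPM for Nr1d1 to 9.70 ± 2.56 TPM for Cry1 and 1.61 ± 0.45 TPM for Npas2 (SD, n = 2). Per3 and Nr1d2 overlapped between the libraries, as did Clock and Cry1, so the order within those 2 pairs is not set by these data. The other neighbours did not overlap. The mean RPKM values deposited for mm9 are a length-corrected unit from a separate quantification of the same libraries. They gave the same order, from 52.0 for Dbp to 0.24 for Npas2, with Per2 at 4.04 and Per1 at 3.97 nearly level.

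Between the libraries, Nr1d1, Dbp, Npas2 and Nr1d2 leaned toward replicate 1, and Cry1 leaned toward replicate 2. Per1, Per2, Per3, Cry2 and Clock lay close to the middle of all genes. Ratios are given as log2 of replicate 1 over replicate 2, after adding 0.5 TPM to each value and subtracting the median over the 14533 genes, which was -0.08. The brackets are 95% intervals of the ratio of expected counts, shifted to lie around the TPM ratio. They cover counting error only, and may understate it, since reads without molecular identifiers are not independent molecules. Nr1d1 had a log2 ratio of 0.86 [0.83, 0.89], a level 1.81-fold higher in replicate 1, and 2.92% of tested genes had a ratio at least as far from 0. Dbp had 0.62 [0.60, 0.65], or 1.54-fold, a size reached by 7.18% of tested genes. Nr1d2 had 0.43 [0.40, 0.46], or 1.35-fold, a size reached by 16.8%.

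Npas2, which is repressed by the NR1D receptors, had a log2 ratio of 0.52 [0.33, 0.71], also toward replicate 1, a size reached by 11.4% of tested genes. Cry1 had -0.43 [-0.52, -0.35], a level 1.35-fold higher in replicate 2, a size reached by 16.5%. The remaining 5 members were small: Clock had 0.14, Per1 0.07, Per3 0.00, Cry2 -0.04 and Per2 -0.05. In sum 7 members were higher in replicate 1 and 3 in replicate 2, but with the trend of the ratio with transcript length removed Clock, Per1 and Per3 turned to -0.10, -0.06 and -0.13, and without the filter on low values Per3 turned to -0.05. The median over the 10 was 0.10, against 0 over all tested genes.

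Nr1d1 and Dbp were the 2 of 10 members that differed at least 1.5-fold, both toward replicate 1. Over all tested genes 8.28% differed by that much in either direction and 6.08% did so toward replicate 1. None of the 10 reached 2-fold, against 1.84% of all tested genes. Which members passed depended on the scale. From expected counts with TMM factors, which ignore changes in effective length, Nr1d1 had 0.88, Npas2 0.74 and Dbp 0.52, so Npas2 passed 1.5-fold and Dbp did not.

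**Figure D2:**
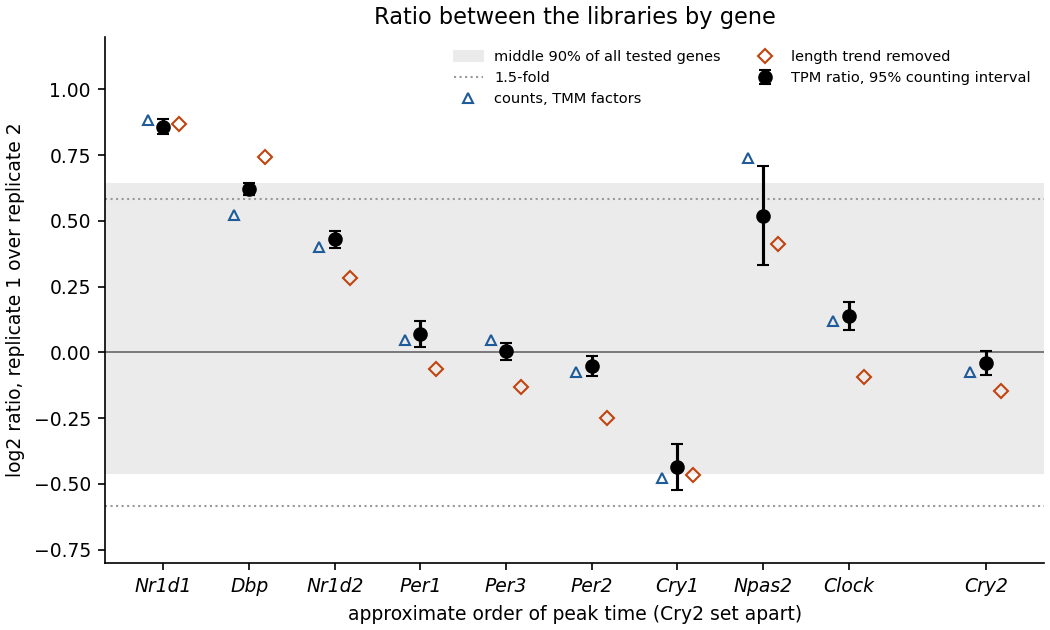
Log2 ratio of replicate 1 over replicate 2 for each clock gene (black points, with 95% counting intervals), set out in the approximate order in which the genes peak, chosen with the values known. Triangles are ratios of counts with TMM factors, diamonds are ratios with the length trend removed, the grey band holds the middle 90% of all tested genes (-0.46 to 0.64) and dotted lines mark 1.5-fold. Nr1d1 alone lies above the band on all 3 scales, and Cry1 lies lowest.

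Genes that peak at opposite times of the cycle are known to move in opposite directions over the day, so the day-to-dusk genes were set against the night-to-dawn genes. These arms are only roughly opposite, since each spans a range of peak times. The 6 day-to-dusk members (Nr1d1, Nr1d2, Dbp, Per1, Per2 and Per3) had a mean log2 ratio of 0.32, and the 3 night-to-dawn members (Npas2, Clock and Cry1) one of 0.07. The difference was 0.25, with a counting error of ±0.07. That error covers read counting only and leaves out the spread between genes. Over all tested genes the 5% and 95% quantiles of the ratio were -0.46 and 0.64. How often other sets of 6 and 3 genes differ by as much was not tested, so the error does not set 0.25 apart from 0. Within each arm the members did not move together. The 3 Per genes lay between -0.05 and 0.07 while Nr1d1, Nr1d2 and Dbp lay between 0.43 and 0.86, and Npas2 at 0.52 and Cry1 at -0.43 were opposed. Without Cry1 the difference was -0.01, without Nr1d1 0.14 and without Npas2 0.47, so its sign rests on Cry1.

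Ratios within a library do not depend on how the libraries are scaled to each other. The log2 ratio of Npas2 to Dbp, an activator of the loop against its output, was nearly the same, at -7.30 in replicate 1 and -7.19 in replicate 2. That likeness depended on the measure. Between the libraries, Npas2 had 0.74 and Dbp 0.52 from counts with TMM factors. With the length trend removed, Npas2 had 0.41 and Dbp 0.74. Pairs with Nr1d1, taken as the member that differed most, were further apart, which restates the ratios given above. Cry1 to Nr1d1 was -4.20 in replicate 1 and -2.90 in replicate 2. Per2 to Nr1d1 was -2.74 in replicate 1 and -1.83 in replicate 2. The time of dissection is not in the labels, and its part in these differences was not tested.

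The wider clock was read from a list of 22 further genes, of which 21 averaged 1 TPM or more. Of these, 10 were higher in replicate 1 and 11 in replicate 2, with a median log2 ratio of -0.04. In all, 3 of the 21 differed at least 1.5-fold, all toward replicate 1, against 8.28% of all tested genes in either direction and 6.08% toward replicate 1. Usp2, a deubiquitinase of clock proteins, had 8.83 TPM in replicate 1 and 4.34 TPM in replicate 2, a log2 ratio of 1.03. Bhlhe40, a repressor that binds E-boxes, had 24.0 TPM in replicate 1 and 12.9 TPM in replicate 2, a log2 ratio of 0.96. Its relative Bhlhe41 had 16.3 TPM in replicate 1 and 9.71 TPM in replicate 2, a log2 ratio of 0.80. All 3 stayed past 1.5-fold with TMM factors (0.96, 0.94 and 0.86) and with the length trend removed (1.04, 0.92 and 0.65).

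The other PAR bZIP factors had smaller TPM ratios than Dbp, a difference that was not tested. Tef, the most abundant gene of the list, had 158 TPM in replicate 1 and 145 TPM in replicate 2, a log2 ratio of 0.21. Hlf, named here after its values were seen, had 24.7 TPM in replicate 1 and 24.9 TPM in replicate 2, a log2 ratio of 0.07. From counts with TMM factors Hlf had 0.48, close to the 0.52 of Dbp on that scale. Rorb, a receptor that competes for the RORE, was the lowest of the list with 0.05 TPM in replicate 1 and 0.08 in replicate 2. For wider arms, 5 day-to-dusk genes (Usp2, Bhlhe41, Ciart, Tef and Hlf) and 2 night-to-dawn genes (Arntl and Nfil3) of this list were added. The difference between the arms was then 0.40. The other genes of the list were placed in neither arm, among them Bhlhe40 at 0.96, Nampt at 0.11, Wee1 at -0.04 and Noct at -0.23. The difference therefore rests on which genes were given an arm. Of the added genes Usp2 at 1.03 and Bhlhe41 at 0.80 had the largest ratios, while Ciart had 0.37, Arntl -0.33 and Nfil3 0.09. The list was chosen with earlier results of these data known, and the wider arms were not recomputed with each gene left out.

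**Figure D3:**
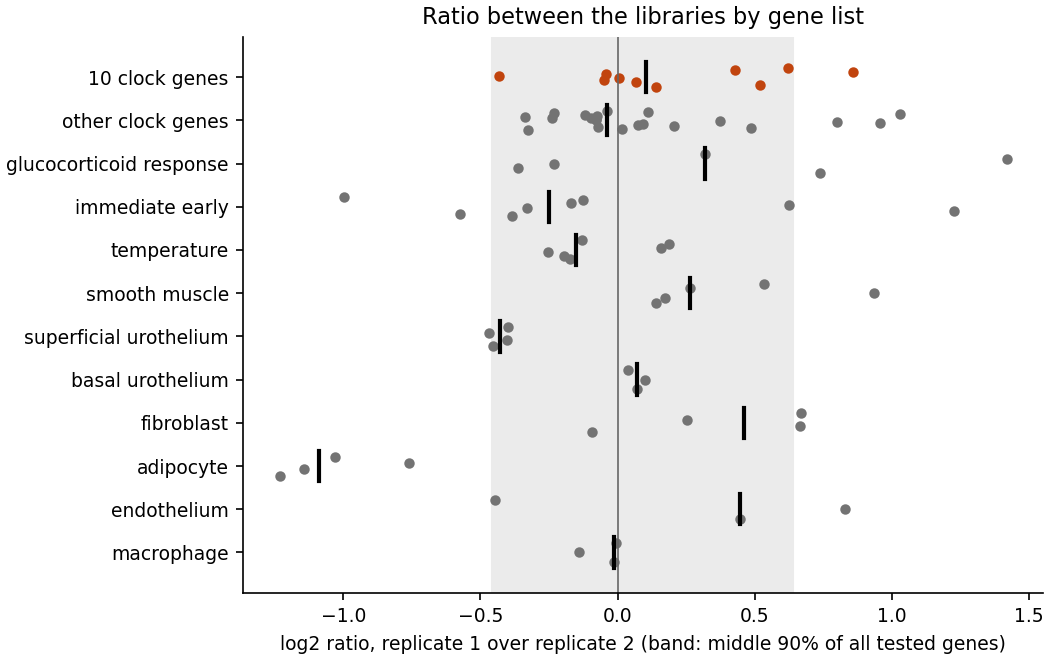
Log2 ratio of replicate 1 over replicate 2 for each gene of each list, one point a gene, with a black bar at the list's median and a grey band for the middle 90% of all tested genes. The 10 clock genes (top row) spread from -0.43 to 0.86, while all 4 adipocyte markers lie left of the band.

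Other gene groups that vary over the day or with handling were mixed. Their lists are short, and 8.28% of all tested genes differed at least 1.5-fold in either direction. Of 5 glucocorticoid response genes 3 were higher in replicate 1 and 2 in replicate 2, with a median of 0.32 and a range of -0.36 to 1.42. Of these Zbtb16, with 13.4 TPM in replicate 1 and 5.01 in replicate 2, and Fkbp5, with 15.6 TPM in replicate 1 and 9.71 in replicate 2, differed at least 1.5-fold. Of 8 immediate early genes 2 were higher in replicate 1 and 6 in replicate 2, with a median of -0.25 and a range of -0.996 to 1.23. Egr1 and Ier2 passed 1.5-fold toward replicate 1, and Atf3 did so toward replicate 2. Of 6 temperature-responsive genes 2 were higher in replicate 1 and 4 in replicate 2, with a median of -0.15 and none past 1.5-fold.

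The cell type lists differed among themselves. All 5 smooth muscle markers were higher in replicate 1, with a median log2 ratio of 0.26. All 4 superficial urothelium markers were lower in replicate 1, with a median of -0.43. All 4 adipocyte markers were lower in replicate 1 by more than 1.5-fold, with a median of -1.09. Of 4 fibroblast markers 3 were higher in replicate 1, with a median of 0.46. The 3 basal urothelium markers had a median of 0.07, the 3 macrophage markers one of -0.01, and the 3 endothelial markers were mixed, from -0.45 to 0.83. No marker of these lists was at 0 TPM in either library. The part of tissue makeup in the clock gene ratios was not tested.

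Transcript length moved with the ratio across all genes. Over the 14533 tested genes the ratio had a Spearman rho of 0.35 with mean effective length, a description across genes that share 2 libraries. The members run from Dbp, with a mean effective length of 1208 bases, to Clock, with 7272 bases. With the trend removed, Nr1d1 had a log2 ratio of 0.87, Dbp 0.74, Npas2 0.41, Nr1d2 0.28, Per2 -0.25 and Cry1 -0.47. The median of the 10 then fell to -0.08.

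**Figure D4:**
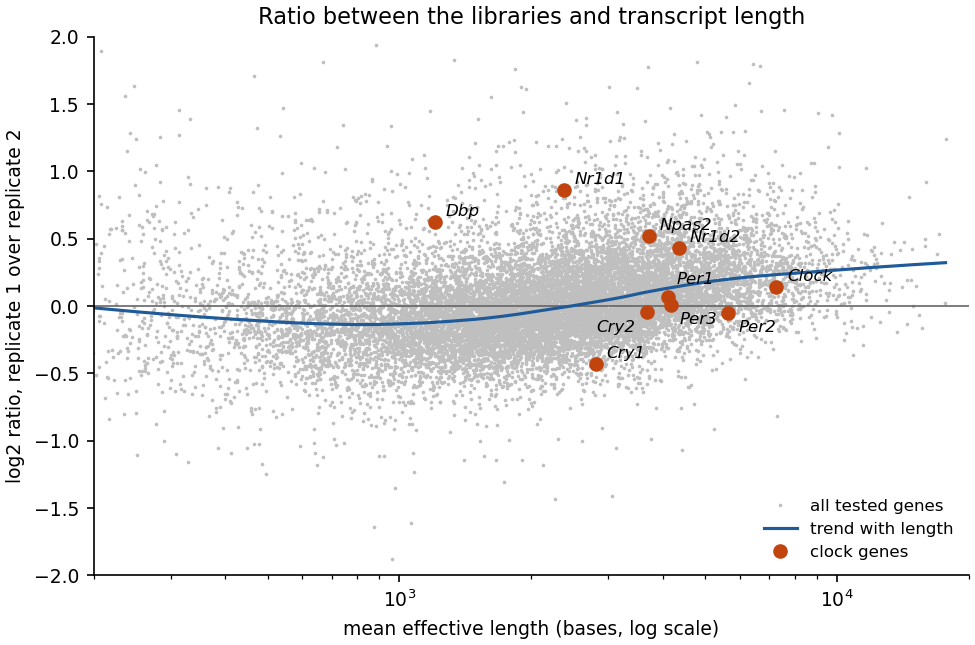
Log2 ratio of replicate 1 over replicate 2 against mean effective length on a log axis, with grey points for all tested genes within the axis limits, a blue line for the lowess trend and orange points for the clock genes. Dbp and Nr1d1 lie well above the trend and Cry1 well below it, while Clock, at 7272 bases, lies just under it.

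Dbp differed unevenly over its transcripts. Dbp was split over 5 quantified transcripts, 3 of which held at least 10% of its TPM. The full-length form, Dbp-201 of 1789 bases, had 185 TPM in replicate 1 and 149.7 TPM in replicate 2, or 48.7% of the gene in replicate 1 and 57.3% in replicate 2. A shorter form of 801 bases, ENSMUST00000107741.1, had 116 TPM in replicate 1 and 56.5 TPM in replicate 2, or 30.5% in replicate 1 and 21.6% in replicate 2. Before centring, the level in replicate 1 was 1.24-fold that in replicate 2 for the full-length form and 2.05-fold for the short one. Another form of 815 bases held 10.9% in replicate 1 and 11.9% in replicate 2. Neither of these shorter forms is in GENCODE M21, the annotation from which names were taken. How the counts are divided among overlapping forms is an estimate, and so is the part of the Dbp ratio that rests on the short form.

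Per3 and Per1 were each divided between a pair of forms. The larger share of Per3 fell to Per3-204, annotated as a processed transcript of 3663 bases with no coding sequence assigned, at 60.4% in replicate 1 and 68.0% in replicate 2. The coding form Per3-201, of 5999 bases, held 32.3% in replicate 1 and 26.7% in replicate 2, or 15.4 TPM in replicate 1 and 13.4 TPM in replicate 2. Most of the Per3 level given above is therefore not assigned to the coding transcript. Per1-201 of 4671 bases held 64.9% in replicate 1 and 69.6% in replicate 2, and a shorter coding form of 3507 bases held 29.4% in replicate 1 and 28.6% in replicate 2. For each of the other 7 genes a single transcript held at least 88.4% in each library. For Nr1d1 this was the coding Nr1d1-201, with 145 TPM in replicate 1 and 81.7 TPM in replicate 2.

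**Figure D5:**
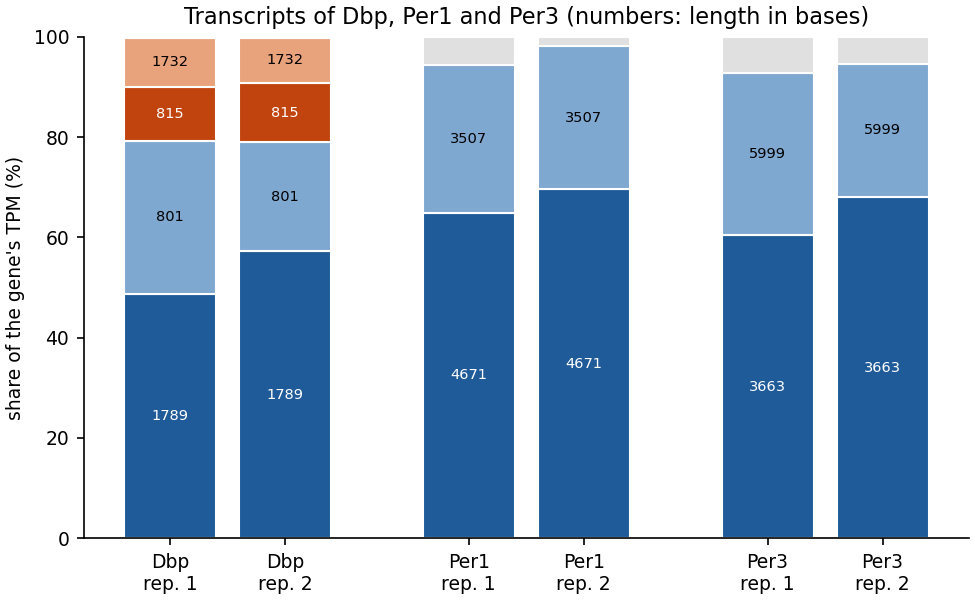
Share of the gene's TPM held by each transcript of Dbp, Per1 and Per3 in replicate 1 and replicate 2, with the transcript's length in bases written in the bar and grey for the remaining transcripts. The 801-base form of Dbp takes 30.5% in replicate 1 and 21.6% in replicate 2, and the 3663-base form of Per3 takes most of that gene in both.

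Splice junctions, deposited on mm9 with both libraries pooled, covered every member, from 715 reads for Npas2 to 20435 for Nr1d1. Between 94.8% (Clock) and 99.5% (Per1) of a gene's junction reads joined an annotated exon end to an annotated exon start of that gene. The joined sites need not belong to the same annotated intron. Among junctions with a site outside these, the one with the most reads lay in Dbp, chr7:52963085-52963629 (mm9). It had 261 reads or 1.33% of that gene's junction reads. Per3 had one at chr4:150387882-150392007 with 217 reads, or 2.14%. Since the libraries were pooled, these cannot be compared between them.

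Some members share exonic bases with a gene on the opposite strand. The libraries are stranded, but whether counting used the strand is not given in the sources used here, so reads of such pairs may not be fully separated. Nr1d1 shares 263 exonic bases with Thra, a thyroid hormone receptor gene that had 61.8 TPM in replicate 1 and 46.9 TPM in replicate 2, a log2 ratio of 0.48 in the same direction as Nr1d1. Dbp shares 539 exonic bases with Sphk2, a sphingosine kinase gene that had 15.5 TPM in replicate 1 and 19.3 TPM in replicate 2, a log2 ratio of -0.22 in the direction opposite to Dbp. Cry2 shares 295 exonic bases with D930015M05Rik, which was listed at 0 TPM in replicate 1 and at 0.02 in replicate 2.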

How the data were processed

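Polyadenylated RNA was sequenced in 2 stranded libraries of mouse bladder, per the labels. The authors deposited tables of genes and of transcripts, on mm10 with GENCODE M4, per the descriptions deposited with them, holding expected counts and TPM, as the file headers name them. For mm9 the authors deposited 2 RPKM values per Ensembl gene, tied to no replicate, so only their mean was used, and whole-number junction read counts pooled over both libraries. Neither the aligner nor the counting tool and its strand setting is given in the sources used here.

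Of 69691 rows, 43346 were Ensembl genes and 42462 took a symbol from GENCODE M21. The other rows, left out, held 5.01% of counts in replicate 1 and 5.98% in replicate 2. Library totals on genes were 99367453 and 105057347. Ratios used TPM with a pseudocount of 0.5, which understates ratios of low genes, over 14533 genes that averaged 1 TPM or more, and a gene was called at 1.5-fold. Rounded to whole numbers, the expected counts gave exact binomial (Clopper-Pearson) 95% intervals, TMM factors (edgeR 4.0.16) and size factors (DESeq2 1.42.0, R 4.3.3), both alternatives. The length trend was a lowess with fraction 0.3 (statsmodels 0.14.6, Python 3.11.15). The ratio and trend steps were tested on simulated data. No test was possible between single libraries.

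All 10 members are named. Of the further list of 22 clock genes, those past 1.5-fold, the highest and lowest, and those added to the arms are named. Nampt, Wee1 and Noct are named as examples of those not added to the arms. Of transcripts those with a mean share of at least 10% are named. Not every gene of that list is reported here by name. Members and lists were chosen with earlier results of these data known. No genes of like pattern are named, since 2 libraries give no measure of likeness.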

Additional observations from a re-analysis of the deposited data

How the results depend on the processing

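The median log2 ratio of the 10 genes, 0.10, was 0.052 without the filter on low values, 0.080 with DESeq2 size factors and -0.080 with the length trend removed, where Clock turned to -0.10 and Per1 to -0.065. Of 70 values of single members under the alternatives, 49 moved by less than their counting error, 19 moved by more, and 2, those of Clock and Per1, turned from a value whose counting interval lay clear of 0. Per3, whose interval spans 0, also changed sign with the length trend removed (-0.13) and without the filter (-0.05), both counted among the 19. The count of members past 1.5-fold, 2, was 1 without the filter, and at 2-fold it was 0, against 268 of all genes (1204 at 1.5-fold). A pseudocount of 0.1 gave 3. The difference between day-to-dusk and night-to-dawn genes, 0.25, lay between 0.18 and 0.29 under other scalings, was 0.40 with the wider arms and ranged from -0.0063 (without Cry1) to 0.47 when each member was left out in turn. The share of all TPM held by the 10 genes, 0.0672%, was 0.0580% and 0.0764% in single libraries and 0.0927% from mm9 RPKM. The log2 ratio of Npas2 to Dbp, -7.24, was -7.30 and -7.19 in single libraries, -7.56 with a pseudocount of 0.1 TPM and -7.75 from mm9 RPKM. The causes of these shifts were not tested.

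A ratio between the libraries cannot be recomputed without one of them. No paired analysis was possible because the samples form 1 group. Depth limits Npas2 most, at 570 counts in replicate 1 and 394 in replicate 2. The difference between the libraries has no replicate check.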
